A study of Mus musculus with 3 samples.

Results

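CAR+ and CAR- cells were compared among Flk1+PDGFRα- cells on 1 two-colour array, out of 3 arrays in the series. The array was chosen by its title, and its members were the probe spots whose identifier is M followed by digits and which the scanner software marked OK in both colours. These were 23473 of 23474 probe spots, for 23472 distinct probes. Both populations came from embryoid bodies, the clusters that mouse embryonic stem (ES) cells form as they differentiate in suspension, grown for 7 days from the line labelled BRC6. They were sorted after staining with antibodies to 3 surface proteins. The CAR+ group is Flk1+PDGFRα-CAR+ and was labelled with Cy3. The CAR- group is Flk1+PDGFRα-CAR- and was labelled with Cy5. Each group is 1 pool of RNA from 5 experiments on 1 ES cell line, so there is no replicate and no swap of the dyes. The other 2 arrays set the same 2 pools against Flk1+PDGFRα+CAR+ cells. They serve here as an indirect route to the same ratio.

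Flk1, encoded by Kdr, is a receptor for vascular endothelial growth factor, and Flk1+ mesoderm gives rise to blood, endothelial and heart muscle cells. PDGFRα, encoded by Pdgfra, is a receptor for platelet-derived growth factors and marks paraxial and cardiac mesoderm in the embryo and in ES cell cultures. CAR, encoded by Cxadr, is the coxsackievirus and adenovirus receptor, an adhesion protein of the immunoglobulin superfamily that lies at cell junctions and is present in the developing heart. Probe identifiers were not paired with genes here. The transcripts of the sorted proteins and the marker genes of mesoderm, heart, endothelium and blood were therefore not looked up, and the labels of the pools were not checked against them. Items below are named by probe identifier, and no sequence of a probe was used.

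A signal is the median pixel intensity of a spot in scanner units. Signals of the 2 colours are not on the same scale: over the 12576 probes above background in both pools, the uncorrected Cy3 signal was a median of 2.62 times the Cy5 signal, with quartiles of 2.19 and 3.11. The background limit of a channel was set at the upper 2.5% of its blank spots or of its spots without a probe, whichever was higher, and a probe had to pass it on both arrays of a pool. On the direct array these limits were 89 in Cy3 and 29 in Cy5. On the other array of each pool they were 76.5 in Cy3 and 35 in Cy5. The ratio of CAR+ to CAR- was computed after background correction and loess normalisation, and is given as log2. Loess is meant to centre the ratios at each level of brightness, but at the top of the range it did not, as described below. The indirect ratio is the sum of the log2 ratios of the other 2 arrays. The dye-free ratio is 2 times the direct minus the indirect ratio, in which a constant dye effect of a probe cancels. The technical SD of 1 log2 ratio was 0.083, from the difference between the indirect and the direct ratio over 12153 probes above background in all 3 pools. It covers hybridisation and spots, not the spread between cultures or sorts. Since each pool exists once, no value below has a test or a replicate error, and a fold difference describes these 2 pools.

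Of 15655 probes above background in at least 1 pool, 369 were at least 2-fold higher in CAR+ cells by both the direct and the dye-free ratio, which is 2.36%. In the other direction 323 probes were at least 2-fold lower, which is 2.06%. Small differences were the rule, with 62.3% of the direct log2 ratios within 0.25 of 0. At 1.5-fold the counts were 890 higher and 840 lower. At 3-fold they were 109 and 123, and at 16-fold 1 and 2. The largest difference was 38.8-fold in the higher and 29.3-fold in the lower direction. The higher probes outnumbered the lower ones at 2-fold, and the order was the opposite from 3-fold upwards. The split of the counted probes was 53.3% higher. When each array was centred on its median without loess it was 68.7%, from 379 higher and 173 lower probes. That centring put the median log2 ratio of the probes measured in all pools at 0.38, against 0.0018 with loess.

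**Figure D1:**
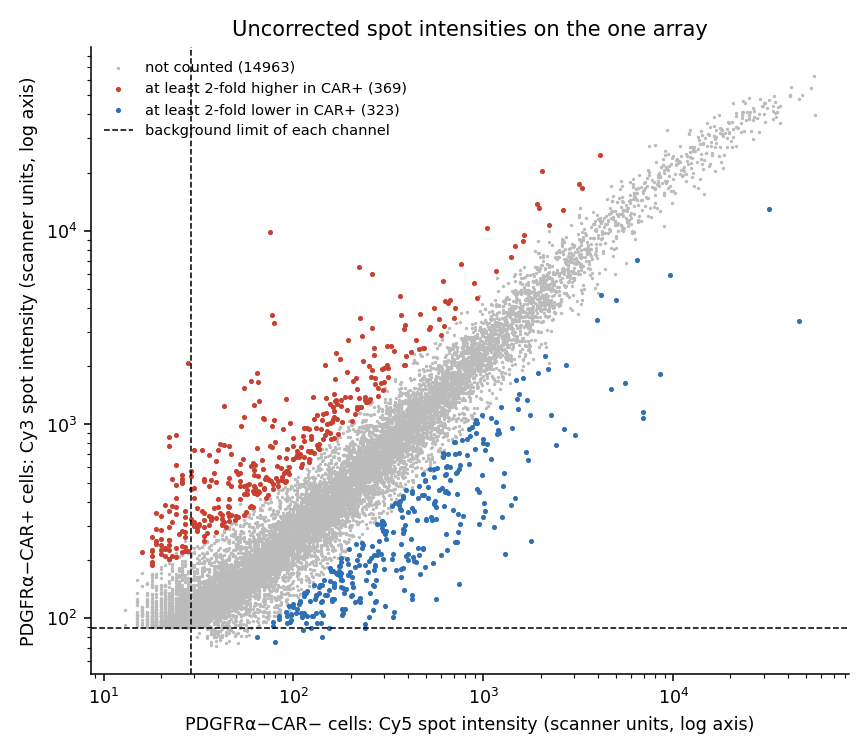
Uncorrected Cy5 signal of CAR- cells (horizontal) against Cy3 signal of CAR+ cells (vertical) for the 15655 probes above background in at least 1 pool, both on log axes in scanner units. Red points are the 369 probes counted as higher in CAR+ cells and blue points the 323 counted as lower, and the dashed lines are the background limits of 29 and 89.

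The probe with the largest ratio in favour of CAR+ cells was M200004673. On the direct array it read 9883 in CAR+ and 75 in CAR- cells. On the other array of each pool it read 4652 in CAR+ and 153 in CAR- cells. Its direct log2 ratio of 5.28 compares with 3.85 by the indirect route, so its direction was the same by both routes while its size differed by far more than the technical SD. M300020122 read 3685 and 2632 in CAR+ cells and 77 and 143 in CAR- cells, with log2 ratios of 3.87 (direct) and 2.93 (indirect). M400011714 had a like profile, with 3346 and 2693 in CAR+ cells, 79 and 167 in CAR- cells, and ratios of 3.71 and 2.67. M300010088 read 1654 and 1019 in CAR+ cells but 65 and 244 in CAR- cells. Its log2 ratio was 2.94 on the direct array and 1.11 by the indirect route, the widest gap among probes above background in both pools. For these 4 probes the Cy5 signal of the same CAR- pool was higher on the array shared with PDGFRα+CAR+ cells, whose Cy3 signals there were 26971, 16139, 14836 and 27117. What that bright partner signal contributed to the gap was not tested. The dye-free ratios of the 4 probes, in the same order, were 6.71, 4.81, 4.75 and 4.76. Each is larger than by either route, because the dye-free ratio rises when the indirect one falls. The counting rule therefore did not hold this gap against them.

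The other probes with large ratios in favour of CAR+ cells agreed better between the arrays. M400005249 read 6467 and 4289 in CAR+ cells and 222 and 201 in CAR- cells, a log2 ratio of 3.46 by both routes and 11-fold in size. M200002176 read 1854 and 1524 in CAR+ cells and 64 and 66 in CAR- cells, with ratios of 3.11 and 3.01. In both probes all signals of either pool lay over the background limits, and the repeat signals of CAR- cells were close to each other. M200004399 read 5999 and 3601 in CAR+ cells against 260 and 317 in CAR- cells, with ratios of 3.15 and 2.45. Its PDGFRα+CAR+ partner signal in Cy3 was also bright, at 19130. M400010742 read 1667 and 1359 against 60 and 79, with ratios of 3.02 and 2.39. M300005317 read 1549 and 1017 against 55 and 50, with ratios of 3.005 and 2.63. In these 3 probes the indirect ratio was the smaller one by 0.37 to 0.71. M300005898 read 1252 and 836 in CAR+ cells and 43 and 45 in CAR- cells, with ratios of 2.93 and 2.70.

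Among the 12 probes with the largest ratios in this direction, 2 were not above background in CAR- cells on both of its arrays. M400000392 read 2070 and 1785 in CAR+ cells and 28 and 36 in CAR- cells, where the limits were 29 and 35, so that CAR- cells passed on 1 of 2 arrays. Its direct log2 ratio of 3.92 was taken against a CAR- signal not above background, and its indirect one was 3.76. M200007659 read 857 and 633 in CAR+ cells and 22 and 25 in CAR- cells, below the limit on both arrays. For a probe of this kind a bound is given, from the mean normalised signal of the bright pool against, on each array of the dim pool, the lowest level above background or the probe's own level where that was higher. Such bounds are open to dye bias, as no dye was swapped, and they hold for the reported background correction only. With local background in the correction, the direct log2 ratio was 1.845 for M200007659 and 0.97 for M200014447. On the same scale their bounds were 2.715 and 2.569. The other background settings that gave a ratio had larger ones. M200007659 was at least 6.57-fold higher in CAR+ cells. M400000392 was 14.1-fold higher, but its own CAR- levels set this value. It is therefore a normalised difference and not a bound. M300017442, with 879 and 611 in CAR+ cells and 24 and 29 in CAR- cells, was 5.96-fold higher. This value too came from its own levels and is not a bound. M200014447, with 774 and 554 against 22 and 25, was at least 5.93-fold higher.

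The lower direction held a probe with very strong signal in CAR- cells. M300003686 read 45917 and 49663 in CAR- cells and 3427 and 7452 in CAR+ cells. Its log2 ratio was -4.87 directly and -4.96 indirectly, a 29.3-fold difference, and the routes differed by 0.084. The close routes do not mean like readings. The CAR+ signal of M300003686 was much higher on the other array, while that of the other probes in this paragraph was lower there. The cause was not tested, and the size of its difference is less certain than the routes make it look. M300003686 made up 0.507% and 0.587% of the summed probe signal above blank level in CAR- cells and 0.018% and 0.048% in CAR+ cells. M300003689 read 6962 and 6068 in CAR- cells and 1080 and 1032 in CAR+ cells, with ratios of -3.89 and -3.85. M400010807 read 8461 and 9945 in CAR- cells and 1821 and 1417 in CAR+ cells, with ratios of -3.40 and -3.61. M200016163 read 6919 and 5756 in CAR- cells and 1160 and 972 in CAR+ cells, with ratios of -3.78 and -3.76. All 4 were far above background in both pools, so these ratios are measured on both sides.

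The remaining 8 of the 12 probes with the largest ratios in favour of CAR- cells had CAR+ signals nearer to background. M200004722 read 1775 and 1682 in CAR- cells and 251 and 202 in CAR+ cells, with a log2 ratio of -4.02 directly and -4.01 indirectly. M300002885 read 1301 and 1100 against 214 and 155, with ratios of -3.80 and -3.65. M200003177 read 741 and 691 against 150 and 125, with ratios of -3.47 and -3.54. Their CAR+ signals lay within 3 times the Cy3 limit, where the offset in the background correction makes ratios smaller. M400008455 read 561 and 609 against 126 and 123, with ratios of -3.30 and -2.94. M200003505 read 1138 and 1502 against 294 and 232, with ratios of -3.15 and -3.23. The last 3 were M200016387, M200002576 and M200003655, with direct ratios of -3.10, -3.06 and -3.02 and indirect ratios of -3.09, -3.11 and -2.75. In all 12 every CAR- signal in Cy5 exceeded every CAR+ signal in Cy3, although Cy3 was the brighter colour for most probes. The 12 were chosen by the direct ratio, so on the direct array this order largely follows from the choice. No share over all probes is given for it.

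**Figure D2:**
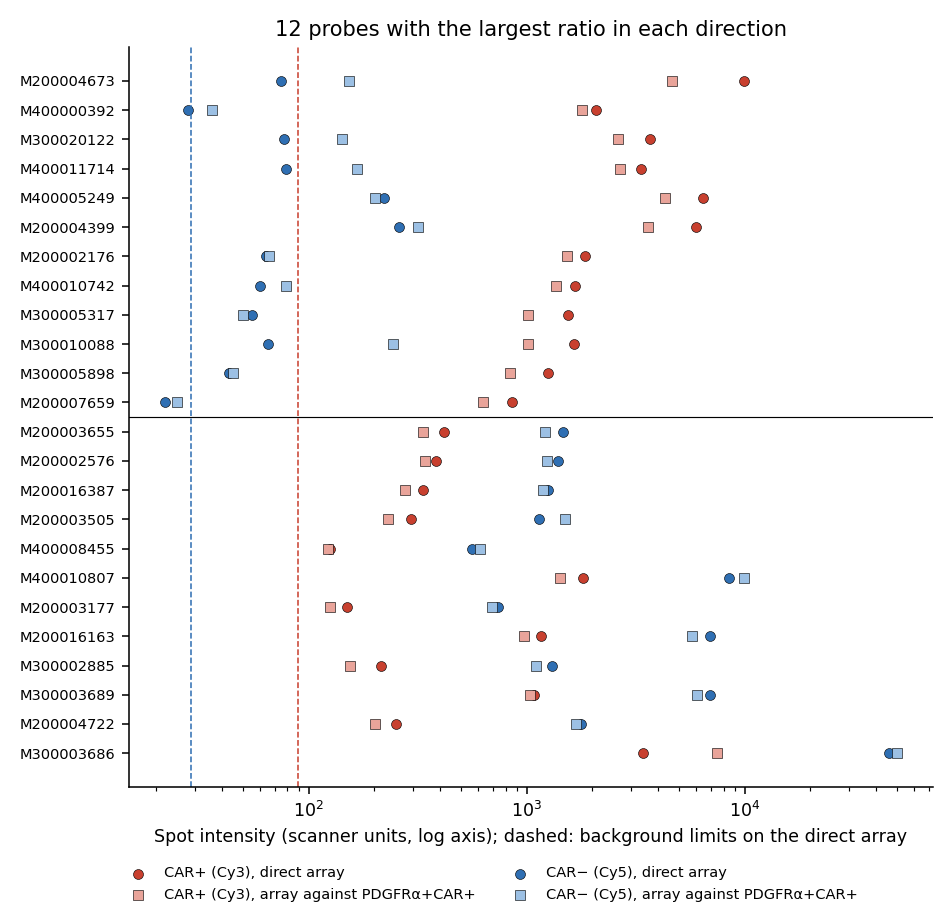
Uncorrected spot intensity (log axis, scanner units) of the 12 probes with the largest ratio in favour of CAR+ cells (above the line) and of CAR- cells (below it). Red symbols are CAR+ in Cy3 and blue symbols CAR- in Cy5, circles the direct array and squares the other array of each pool. Blue squares lie furthest right of blue circles for M200004673, M300020122, M400011714 and M300010088, and by less for several other probes.

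Fewer of the lower than of the higher probes fell to background in 1 pool. Of the 369 higher probes, 81 were not above background in CAR- cells on both arrays, and of the 323 lower probes 8 were not above background in CAR+ cells on both arrays. Over all 15655 probes, 2992 (19.1%) were above background in CAR+ cells alone and 87 (0.556%) in CAR- cells alone. Cy3 passed its limit for 68.4% and 71.5% of probes on the 2 arrays of the CAR+ pool, and Cy5 for 58.1% and 54.1% on those of the CAR- pool. Colour and population cannot be told apart in these shares. Restricted to probes above background in both pools, 288 were higher and 315 lower, and the share of higher probes was 47.8%, on the other side of equal numbers. M300009616 had the largest ratio among the 8, with 239 and 220 in CAR- cells, and it was at least 5.33-fold lower in CAR+ cells, where it read 89 and 67. M400012586 read 141 and 128 in CAR- cells against 80 and 71 in CAR+ cells and was at least 3.33-fold lower in CAR+ cells. M200001618 read 153 and 130 against 89 and 65 and was at least 3.53-fold lower. These bounds hold for the reported background correction only. With local background in the correction, the direct log2 ratios in the same order were -1.885, -0.97 and -1.29. They were smaller in size than the bounds, which were 2.416, 1.735 and 1.818 on that scale. The other background settings that gave a ratio had larger ones. M400012445 read 123 and 113 in CAR- cells against 89 and 80. It passed the limit in CAR+ cells on 1 of 2 arrays, not the direct one. By its own CAR+ levels it was 2.86-fold lower, which is a normalised difference and not a bound.

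The 5 counted probes with the highest mean signal differed by 2.17- to 4.43-fold in the higher direction and by 2.02- to 29.3-fold in the lower, where M300003686 is again among them. M400011156 read 20392 and 13579 in CAR+ cells and 2037 and 1727 in CAR- cells, with a log2 ratio of 2.15 directly and 1.98 indirectly. M300000003 read 24534 and 17030 against 4122 and 4249, with ratios of 1.43 and 1.11. The other 3 bright probes higher in CAR+ cells, M300004979, M200016095 and M300013846, had direct ratios of 1.28, 1.17 and 1.12. By the indirect route M300013846 was at 0.82 and no longer 2-fold. Among the bright probes lower in CAR+ cells, M200009414 read 31843 and 30327 in CAR- cells and 12885 and 18439 in CAR+ cells, with ratios of -2.41 and -2.39. M300002060 and M200002061 had direct ratios of -1.86 and -1.35 and indirect ratios of -1.81 and -1.25. M400012480 lay at the threshold, with -1.01 directly and -0.94 indirectly.

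At the top of the brightness range the ratios leaned towards CAR- cells, which carried Cy5. The 160 probes with a mean log2 signal of 13 to 14 had a median direct log2 ratio of 0.03, the 107 from 14 to 15 a median of -0.27, and the 34 above 15 a median of -0.67. The difference between indirect and direct ratio had medians of 0.04, -0.13 and -0.40 in the same order, and the authors' deposited ratios had medians of -0.06, -0.39 and -0.82. No probe above 15 was counted. M400002052, with 53132 and 53772 in CAR- cells, had a direct log2 ratio of -1.02 and an indirect one of -2.41. M400007104, with 55462 and 51225, had -1.55 and -2.62. Their dye-free ratios of 0.37 and -0.48 kept both out of the count. M200009414, with a mean log2 signal of 14.3, was the only counted probe above 14, and its routes differed by 0.028.

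**Figure D3:**
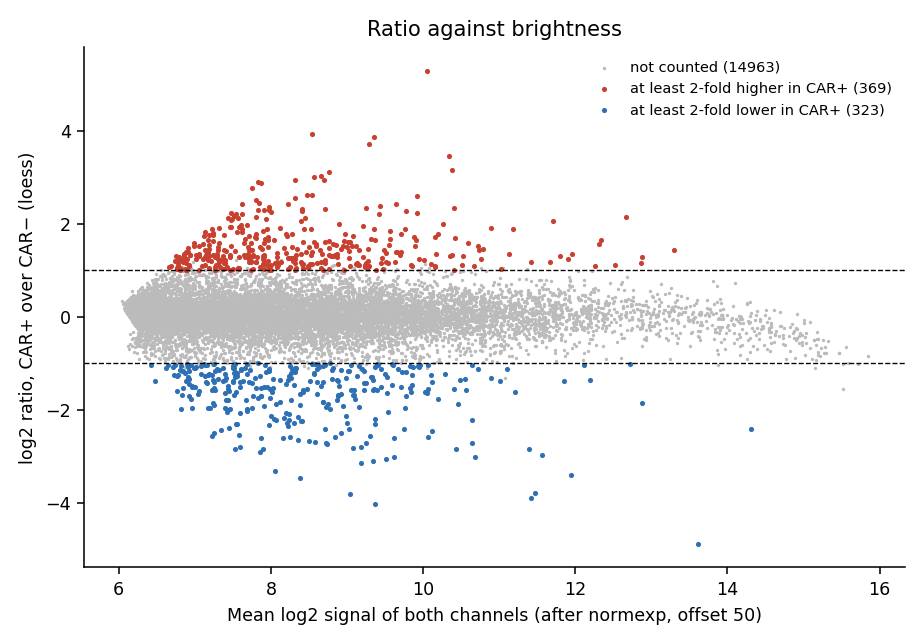
Direct log2 ratio of CAR+ over CAR- cells (vertical) against the mean log2 signal of both channels (horizontal) for the same 15655 probes, with dashed lines at 2-fold. Red and blue points are the 369 higher and 323 lower probes, and the points above a mean log2 signal of 15 lie below 0 with a median of -0.67.

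Differences of 2-fold were found most often at middle brightness. The 12576 probes above background in both pools were divided into 5 equal groups by mean signal. In the dimmest group, with median signals of 130 in Cy3 and 43 in Cy5, 0.835% of probes were counted, 0 higher and 21 lower. In the following groups the shares were 4.73%, 7.44%, 7.04% and 3.94%. The SD of the direct log2 ratio was 0.26 in the dimmest group and 0.46 to 0.59 in the others. The technical SD varied little, from 0.080 to 0.088 across the 5 groups. The offset of 50 in the background correction makes the ratios of dim probes smaller. The authors' deposited log2 ratios, whose background step no header or label describes, were larger in size than the direct ones by a median of 1.45 over 21 counted probes of the dimmest group and by 0.075 over 100 of the brightest.

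The indirect route gave the direction of the direct ratio for all 369 higher and all 323 lower probes. The routes use the same 2 pools on different arrays, so this compares hybridisations and not cell preparations. Both routes also have CAR+ in Cy3 and CAR- in Cy5. A shared direction therefore cannot tell a dye effect of a probe from a difference between the pools. The median indirect log2 ratio was 1.31 against 1.34 directly for the higher probes and -1.42 against -1.503 for the lower ones. By the direct ratio alone 403 probes were higher, of which 333 (82.6%) were also 2-fold higher by the indirect ratio alone, and these were 80.2% of the 415 found that way. Of 347 lower probes by the direct ratio alone, 292 (84.1%) were also found indirectly, or 81.1% of 360. The loss lay close to the threshold. Between 1 and 1.5 on the log2 scale, 193 of 263 higher and 129 of 184 lower probes passed 2-fold indirectly. Above 1.5 all 140 higher and all 163 lower probes did. Among the 9 probes above 3 in the higher direction the indirect ratio was lower by a median of 0.63, whereas among the 13 beyond -3 in the lower direction the indirect minus the direct ratio had a median of 0.012 and a median size of 0.082.

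**Figure D4:**
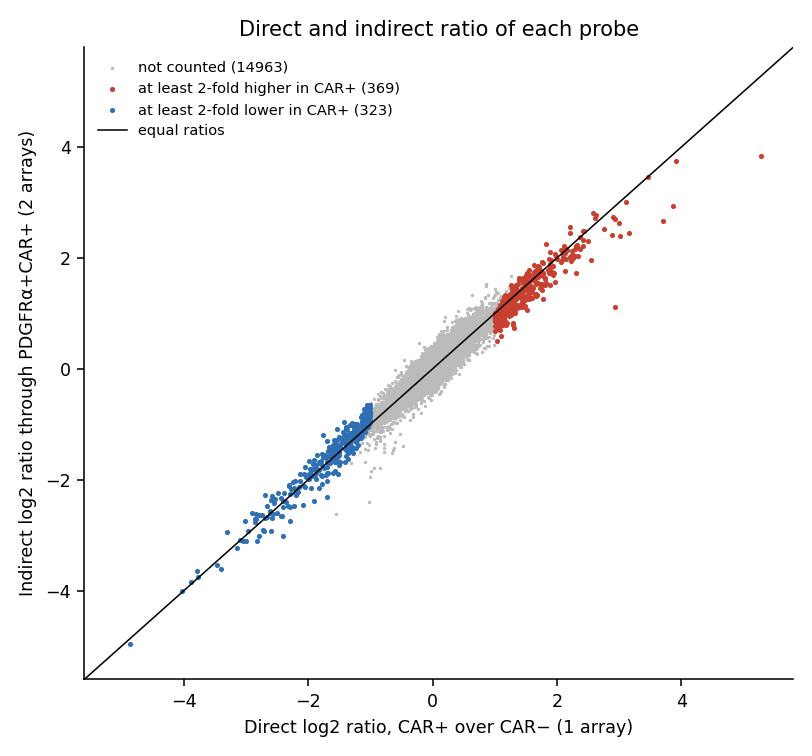
Direct log2 ratio of CAR+ over CAR- cells from 1 array (horizontal) against the indirect ratio through PDGFRα+CAR+ cells from the other 2 arrays (vertical), with the line of equal ratios. The 323 lower probes (blue) follow the line to -4.87, while the highest red points, M200004673 among them at 5.28 and 3.85, fall below it.

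The probes nearest to the 2-fold threshold show how little separates counted from uncounted ones. M200001893 was counted with a direct log2 ratio of 1.0022, and M200009662 was not counted with 0.9987. The gap between them is far below the technical SD. M400008860 was counted as lower with -1.0001, and M300008045 was not counted with -0.9991. The other probes named at the threshold were M200004150 and M200004967 inside it, and M300016021 and M200004970 outside it. M300000682 was the only probe spotted more than once. Its 2 spots, in different print blocks, read 230 and 226 in Cy3 and 97 and 112 in Cy5, and gave log2 ratios of -0.11 and -0.31. The spots differed by 0.19, more than the technical SD, which is that of 1 ratio and not of a difference.

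The PDGFRα+CAR+ pool, measured on the other 2 arrays, gives a side-by-side reading for the named probes. Its ratios share the CAR- pool on 1 array and the CAR+ pool on the other with those above, so no relation is drawn from them. M200004673, M300020122, M400011714, M200004399 and M300010088 gave more signal in the PDGFRα+CAR+ than in the PDGFRα-CAR+ pool, and the log2 ratio of the latter to the former was -2.55, -2.78, -2.74, -2.56 and -4.73. The same order held for M300005317, M400010742, M300005898 and M200002176, with -2.32, -1.57, -1.32 and -1.01. M400000392 and M200007659 read nearly alike in the CAR+ populations, with 0.38 and -0.13. M400005249 had -0.62. Among the probes low in CAR+ cells, M300003689 and M400010807 gave the least signal in the PDGFRα-CAR+ pool, with -1.26 and -1.44. M300003686 had -1.001, but its PDGFRα-CAR+ signals of 3427 and 7452 lay on both sides of the 4852 read in the PDGFRα+CAR+ pool on another array, so its order is not settled. M200016163 and M200002576 had the opposite order, with 2.11 and 1.16. M200004722, M300002885 and M200003177 differed little between the CAR+ populations, with -0.13, 0.33 and 0.25. The array of the 2 CAR+ populations was scanned in another run than the direct one.

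Counted probes held a small part of the total signal. The 369 higher probes made up 2.90% of the summed probe signal above blank level in CAR+ cells and 0.769% in CAR- cells. The 323 lower probes made up 0.760% in CAR+ cells and 3.23% in CAR- cells. These directions follow from how the probes were chosen. Counted probes were spread over the array, with 19 to 42 (median 29) in each of 24 print blocks. The block medians of the direct log2 ratio lay between -0.041 and 0.032. The technical SD is that of 1 ratio and does not measure the error of a block median.

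The counts changed with the background correction. With normexp at an offset of 10 there were 670 higher and 535 lower probes, and with local background subtracted 1222 and 1172. Of the 369 higher probes 368 and 260 were among these, and of the 323 lower probes 322 and 210. In the authors' deposited ratios, put through the same rule, 705 probes were higher and 607 lower, among them 328 of the 369 and 280 of the 323. That table holds no ratio for 23 of the 369 higher probes. Its direct ratio alone, without the dye-free one, was at least 2-fold in the same direction for the other 346 and for all 323 lower ones. With local background inside normexp, 239 were higher and 231 lower, of which 156 and 168 were among those reported. Of 43 counted probes named here, 33 stayed at least 2-fold and none changed direction in the 8 or 9 settings that gave a ratio. The direct ratio alone and the dye-free ratio are among these settings, and the counting rule had already fixed both at 2-fold or more. The named probes were chosen mainly for a large ratio or brightness, so their share does not stand for all counted probes.

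**Figure D5:**
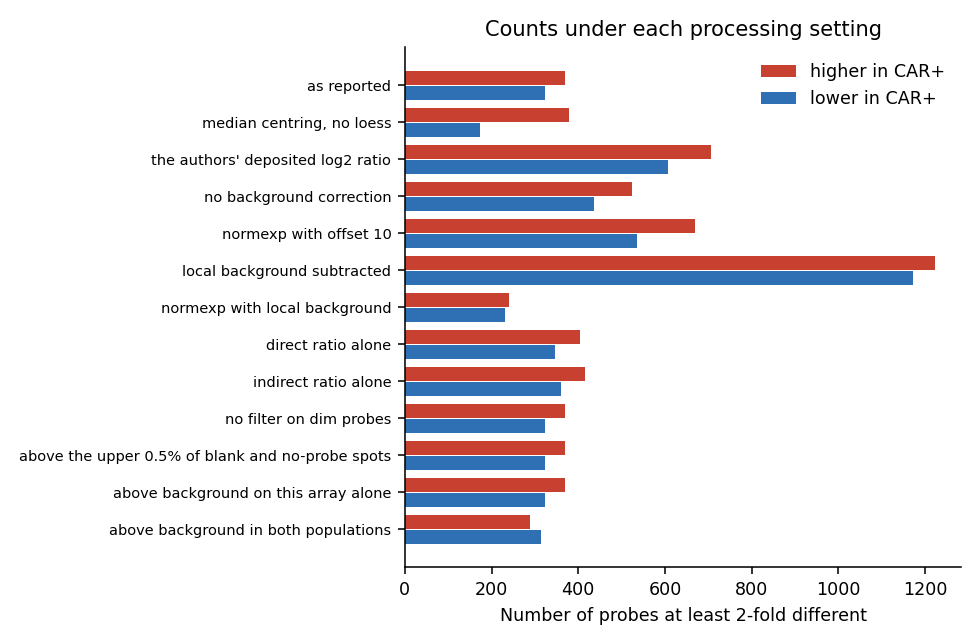
Number of probes at least 2-fold higher (red) or lower (blue) in CAR+ than in CAR- cells under the reported processing and 12 alternatives, with bars starting at 0. The counts run from 239 to 1222 in the higher and from 173 to 1172 in the lower direction, and median centring is the setting with the most unequal bars.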

How the data were processed

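Total RNA of sorted cells was amplified and dye-coupled on TORAY mouse chips, per the labels and file headers. The deposited scanner tables hold median spot intensity values in both colours, with no normalisation or background step recorded, per the file headers. The authors also deposited normalised log2 ratios per probe, whose making no header or label describes. The number of arrays limits the precision.

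Intensities were corrected by normexp (offset 50, without local background) and normalised by loess within each array in limma 3.58.1 under R 4.3.3, with control and flagged spots at weight 0. Spots of 1 probe were averaged. A probe was counted when direct and dye-free log2 ratio had a size of 1 or more with equal sign, among probes over the background limits of at least 1 pool. The steps were run on simulated spots, with changes placed only in probes well above background and no dye effect of single probes. That run does not bear on dim probes or on dye bias. Named were the 12 counted probes with the largest ratio per direction, 5 per direction with the highest mean signal, 4 per direction above background in 1 pool only, those nearest the threshold, 4 with the largest gap between routes, and the probe with 2 spots. The rules and lists were chosen with earlier results of these data known. Marker lists could not be applied, as probes were not paired with genes here.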

Additional observations from a re-analysis of the deposited data

Results flagged for a closer look

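Positive control spots, which enter no comparison above, stood apart from the negative controls on the direct array, whose 96 spots had log2 ratio quartiles of -0.050 and 0.063. Positive control 2 had a median log2 ratio of -0.198 (SD 0.13 over 24 spots), while 102 probes of like brightness had a median of 0.09. By the indirect route, from spot medians, it was -0.036, within the quartiles of the negative controls on the direct array. Positive control 3 had a median of -0.823 (SD 0.19 over 24 spots), while 47 probes of like brightness had a median of -0.38, and its indirect value was -1.28. Spots of 1 control share an array, so these SDs are spot-to-spot spread and not replicate error.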

How the results depend on the processing

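With 1 pool per population, no replicate could be left out. No analysis paired by experiment was possible, because the experiments of a pool were not measured apart. Against 369 higher and 323 lower probes (53.3% higher), median centring gave 173 lower and 68.7% higher, the authors' ratios 705 and 607, an offset of 10 670 and 535, and local background subtracted 1222 and 1172. Normexp with local background gave 239 higher. Requiring both pools above background turned the share to 47.8% higher, since that filter removes 81 higher and 8 lower probes. For the other changes the cause was not tested. The counts were 369 and 323 with no filter on dim probes, with a limit at the upper 0.5% of blank spots and with the limit on this array alone, so that filter decided nothing at 2-fold. Background level limits ratios of probes near 89 in Cy3 or 29 in Cy5. The dye-free value of single probes was added after seeing the data.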

Other observations

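Identifiers fall into series that start with M2, M3 and M4, whose meaning the labels do not give. Of 8034 M2 probes 75.2% were above background in at least 1 pool, of 6804 M3 probes 69.1%, and of 8634 M4 probes 56.9%. Among the probes above background, 5.74% of M2, 3.51% of M3 and 3.66% of M4 were at least 2-fold different between CAR+ and CAR- cells. M2 probes were also the brighter ones, with a median mean log2 signal of 8.38 against 7.90 and 7.77 among probes above background in both pools. The part of brightness in the higher share was not tested.

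The CAR- pool was read in Cy5 on 2 arrays, which gives a repeat for probes that were dim in it. Among probes with a CAR- signal under 100 on the direct array, the repeat is given here by the Cy3 signal of the partner pool on the other array. Where the PDGFRα+CAR+ signal in Cy3 was below 300, the CAR- signal was a median of 23 on the direct and 26 on the other array (15198 probes). Where it was 300 to 1000, the medians were 54 and 56 (365 probes), and where it was 1000 to 3000, 37 and 40 (43 probes). The median ratios of the repeat to the first reading in these 3 groups were 1.08, 1.04 and 1.10, with no steady rise. The indirect minus the direct log2 ratio had medians of 0.009, 0.002 and -0.198, so by that measure a gap was present at 1000 to 3000. Where it was 3000 to 10000, the medians were 55 and 69 (5 probes). Where it was above 10000, they were 75 and 153 (5 probes), a median ratio of 2.04. The higher uncorrected repeats rest on these 2 groups of 5 probes, where the indirect minus the direct ratio had medians of -0.466 and -1.037. The 4 probes with the gaps between routes described above for M200004673, M300020122, M400011714 and M300010088 are among the last 5. These values were noticed in the data, and no cause was tested.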
